A study of Zea mays with 22 samples.

Results

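The maize genes sir, MMT1, met2 and sam2 were followed on spotted arrays that set RNA of UV-B treated plants against RNA of their controls. They were chosen by name, as every probe whose gene symbol or synonym in the array annotation is 1 of these 4 names. They made up 4 of the 329 genes named by probes with a single gene, and 5 of the 5640 probes of one array design and 5 of the 5760 of the other. The genes sir, MMT1 and sam2 had 1 probe each and met2 had 2. They had been grouped as genes of sulfur assimilation and the methionine cycle, and that grouping is in doubt for met2. The annotation holds no gene descriptions and gives no role for met2 itself. The neighbour of met2 in name, met1, carries the synonyms dmt101 and ZMET1 of a DNA methyltransferase. As far as is known, met2 in maize is a chromomethylase, an enzyme that methylates cytosine in DNA, and not a methionine synthase. The sources used here pair sam2 with no enzyme name, so it is called by its symbol. How the 4 genes came to be chosen is known only as far as that earlier results of these same arrays were in view, so what follows describes them and none of their calls is independent evidence.

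Plants take up sulfur as sulfate and reduce it in the plastids, where sulfite reductase, the product of sir, makes the sulfide that is built into cysteine. Methionine made from cysteine is turned into S-adenosylmethionine, the methyl donor for DNA, lignin precursors and many small molecules, and a donor for the synthesis of ethylene and polyamines. MMT1 is methionine S-methyltransferase, which uses S-adenosylmethionine to make S-methylmethionine, a form in which plants store and move sulfur. Homocysteine S-methyltransferase, encoded by hmt4 among others, runs the step back to methionine. A chromomethylase such as met2 draws on the same methyl donor.

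Each of the 22 arrays compared 2 RNA samples by dye, and a value is the log2 ratio of the 2, so it shows a difference and not a level. In the first array design, seedling leaf, adult leaf, tassel, immature ear and root were compared with their controls after 8 h of UV-B. An adult leaf kept under a PE bag on a UV-B exposed plant was compared with a leaf under a PE bag on a control plant, and an adult leaf under a CA bag with one under a PE bag, both on exposed plants. The letters CA and PE are not spelled out in the labels. In work on UV-B, cellulose acetate is a plastic that passes UV-B and polyester is one that absorbs it. In the second design, 4 regimes named in the titles (2 h high, 4 h medium, 8 h high and 8 h low UV-B) were each compared with control on 2 arrays, with the dyes exchanged between them. The titles and channel names give no plant line, plant age or irradiance, and do not say whether the 2 arrays of a group came from separate plants, so the spread between them may be technical.

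Only 17 of the 22 arrays held a profile of their own. The columns of root arrays 1 and 2, tassel arrays 1 and 2 and immature ear arrays 2 and 3 differed by a constant alone. Those of seedling leaf arrays 1 and 2 did so at the 13331 spots both held, while 3463 further spots were blank on array 2 and filled on array 1, and array 2 was kept. The deposited columns of immature ear array 1 and tassel array 1 were the same. Each profile was used once, which left seedling leaf, tassel, ear, root and PE-covered leaf with 1 profile each and no replicate. The files do not state which way the ratios run, so a value above 0 is assumed to mean more RNA under UV-B than in the control, and more under CA than under PE. Between 32.7% and 99.2% of spots had a value, and a probe is the mean of its 3 spots. Pairs of arrays differed in how well they matched: Pearson's r over all probes was 0.80 for 2 h high, 0.575 for the bags, 0.23 for 4 h medium and 0.18 for 8 h high, and below 0 for adult leaf (-0.18) and 8 h low (-0.36). The 8 h low arrays therefore have no settled direction, and values with every dye-swapped array turned the other way are given beside the MMT1 calls.

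The gene MMT1 showed the widest spread between regimes. Its values were 0.27 and 0.32 on the 2 arrays of 2 h high UV-B, and 0.63 and 0.35 on those of 8 h high UV-B. They were -0.05 and 0.10 at 4 h medium, and -0.01 and -1.15 at 8 h low. Both arrays of each high regime lay above 0, the 4 h medium arrays lay on either side of it, and the 8 h low arrays lay far apart. MMT1 stood above 98.8% of probes on 8 h high array 1 and above 91.1% on array 2. On 8 h low array 2 it stood above 0.648% of probes and on array 1 above 48.2%. The 3 spots of MMT1 lay close together on that low array, at -1.15, -1.08 and -1.21, and read -0.11, -0.08 and 0.17 on array 1.

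**Figure D1:**
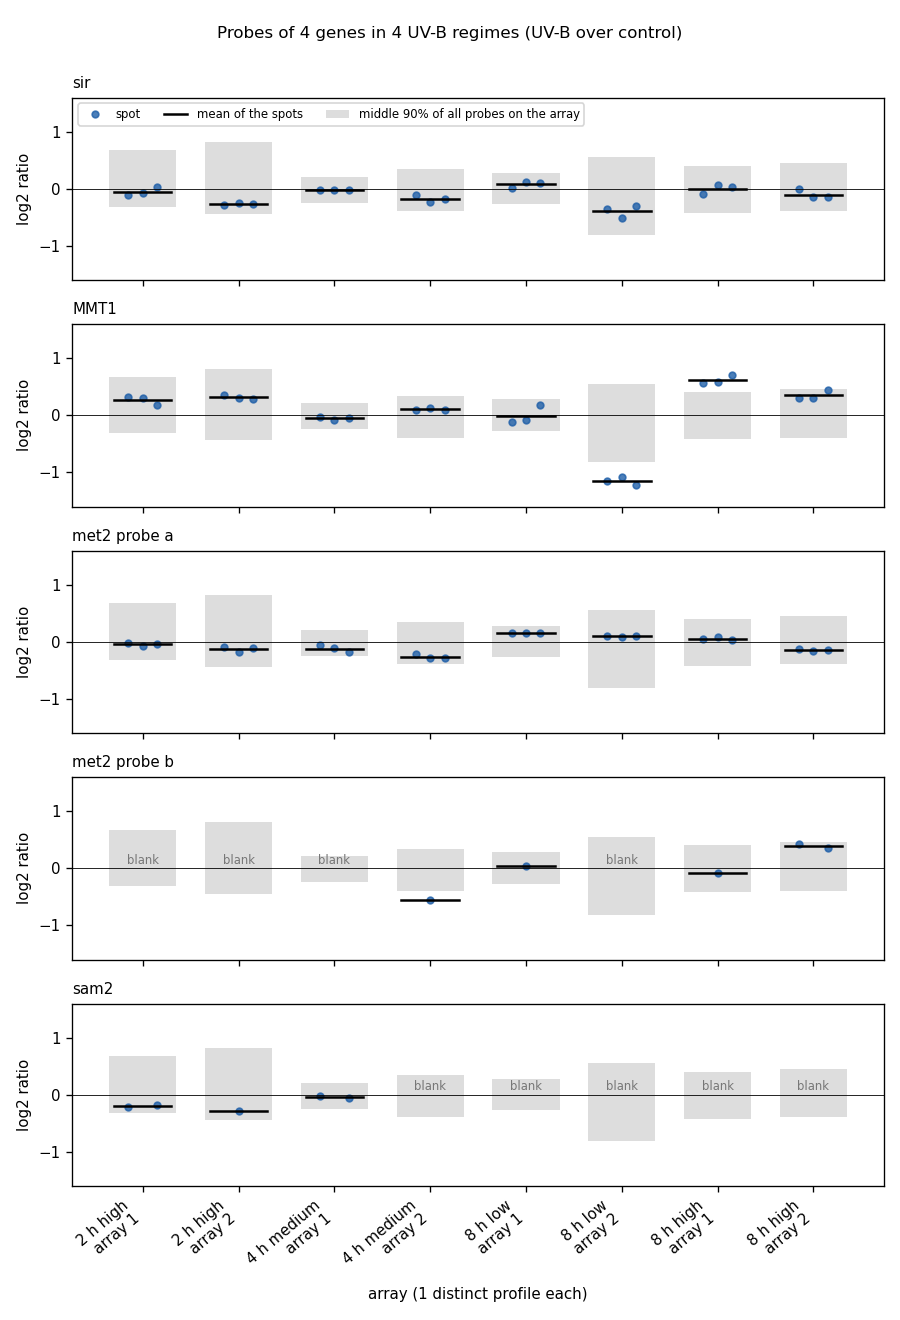
Values of the 5 probes on the 8 arrays of the second design. The vertical axis is the log2 ratio of UV-B over control, centred on each array's median, points are spots, bars are the mean of the spots, and grey boxes hold the middle 90% of all probes on that array. MMT1 lies above its box on 8 h high array 1, at 0.63, and below it on 8 h low array 2, at -1.15, while sir and met2 probe a stay inside theirs on all 8 arrays.

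The plot of the regime arrays shows these points against the spread of all probes. The ordered regime means of MMT1 were 0.49 ± 0.19 (SD, n = 2 arrays) at 8 h high, 0.29 ± 0.04 (SD, n = 2) at 2 h high, 0.03 ± 0.11 (SD, n = 2) at 4 h medium and -0.58 ± 0.80 (SD, n = 2) at 8 h low. Neighbours in that order did not differ past the threshold, which was a Benjamini-Hochberg adjusted p of 0.05 over all probes in limma. Their differences were 0.20 (95% interval -0.23 to 0.62) between 8 h high and 2 h high, 0.27 (-0.16 to 0.69) between 2 h high and 4 h medium, and 0.60 (0.18 to 1.03) between 4 h medium and 8 h low. Each high regime differed from 8 h low past the threshold, and 8 h high against 4 h medium was not fitted. The 8 h high mean of MMT1 exceeded the 8 h low mean by 1.07 ± 0.22 (SE), a ratio of 2.09, where 0.636% of 4872 probes passed, and it ranked 4th among them by size of difference and 8th by p. The 2 h high mean exceeded the 8 h low mean by 0.87 ± 0.22 (SE), a ratio of 1.83, where 5.28% of probes passed. Both SEs lean mostly on the spread of all probes, and they are not the spread of MMT1 itself, whose SD at 8 h low was 0.80.

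Both calls of MMT1 rest on 8 h low array 2. Without it the difference from 8 h high was 0.51 and from 2 h high 0.31, neither past the threshold, and without 8 h low array 1 the values were 1.62 and 1.43, both past it. With every dye-swapped array turned the other way the differences were -0.43 and -0.59, the 8 h low mean was 0.57, and none passed. No probe of any gene passed in that setting, so the loss of the calls is not particular to MMT1. The call against 8 h high was also lost without 8 h high array 1 (1.08) or array 2 (1.05), and the call against 2 h high without 2 h high array 2 (0.63) or either 8 h high array (0.87). Without the dye term, which is also the replicate block, the differences stayed at 1.07 and 0.87 and neither passed. In that fit none of 4872 probes passed for 8 h high against 8 h low. For 2 h high against 8 h low 81 of 4771 passed above 0 and 0 below. On 8 h low array 2 the probes of the same source plate had a median of -0.26 and those of the same print block -0.32, and the part of print position in the MMT1 value was tested only by setting block or plate medians to 0. With block medians set to 0 the differences were 0.94 and 0.73 and neither passed. With plate medians at 0 they were 1.06 and 0.73 and both passed.

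Against control, no regime moved MMT1 past the threshold. Its mean missed it at 8 h high, where 3.78% of probes passed and 3.26% had a larger change than MMT1, and at 8 h low, where 0.387% passed and 0.469% had a larger change. At 2 h high, where 13.7% of probes passed, 24.4% had a larger change than its 0.29 ± 0.15 (SE). At 4 h medium 0.303% of probes passed and 84.7% had a larger change.

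In the organs and under bags MMT1 stayed near 0 on most arrays. It read 0.30 in immature ear, 0.21 in root, -0.02 in tassel, -0.16 in seedling leaf and -0.04 in PE-covered leaf, and it had no value on adult leaf array 1 and -0.01 on array 2. The bag arrays disagreed: CA over PE was -1.12 on array 1, above 0.393% of probes only, and -0.02 on array 2. As at 8 h low, 1 of 2 arrays held the whole difference. A probe needed a value on all 4 arrays of that fit, so MMT1 was not tested there. In the fit without the dye term, where 2 bag arrays were enough, its mean of -0.57 ± 0.21 (SE) did not pass.

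As deposited, the ratio of sir was largest for CA over PE and smallest for UV-B over control in uncovered adult leaf. These ratios have different references, so their order does not rank RNA levels. Leaf under a CA bag exceeded leaf under a PE bag on both arrays, by 1.05 on array 1 and 0.61 on array 2, above 99.2% and 97.7% of probes. The 3 spots read 1.05, 1.02 and 1.07 on the first and 0.63, 0.61 and 0.57 on the second, so the arrays differed by more than the spots within either. In adult leaf the values were -0.21 and -0.80, the second of them above 1.78% of probes only. Every other profile of the first design lay above 0, with 0.54 in seedling leaf, 0.48 in PE-covered leaf, 0.45 in immature ear, 0.10 in root and 0.04 in tassel. That order depends on the direction of the dye-swapped arrays, which were array 2 of adult leaf and of the bags. With their signs turned, sir read 0.80 on adult leaf array 2 and -0.61 on bag array 2, and adult leaf was no longer the lowest. The columns kept for seedling leaf and immature ear are labelled as swapped too, and turned they read -0.54 and -0.45. Both profiles were also deposited with the same sign under an unswapped label, so the labels do not settle their direction.

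**Figure D2:**
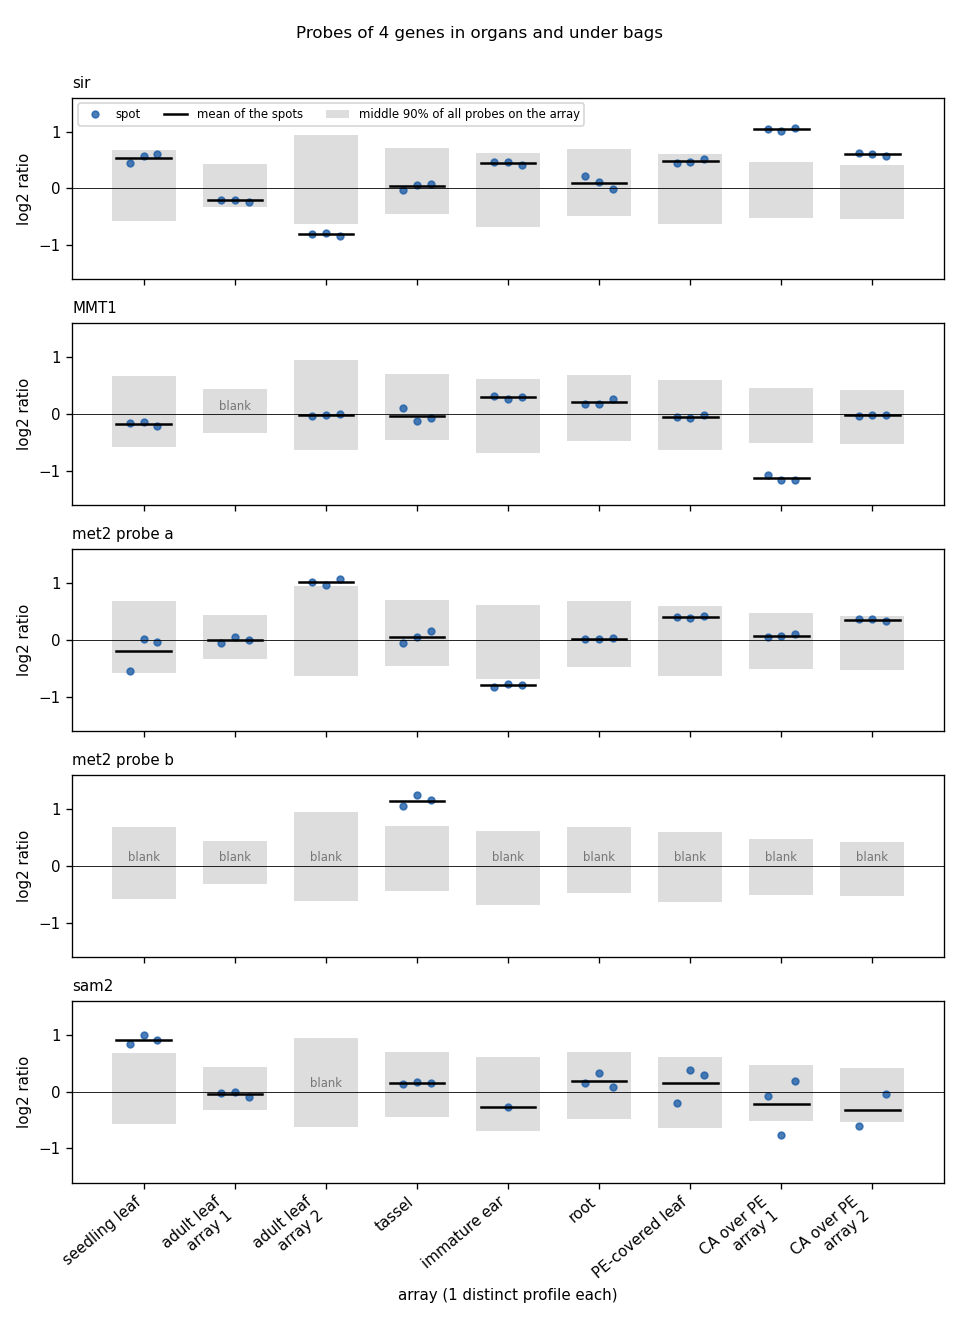
Values of the 5 probes on the 9 distinct profiles of the first design. The vertical axis is the log2 ratio centred on each array's median (UV-B over control for 7 profiles, CA over PE for the last 2), points are spots, bars are the mean of the spots, and grey boxes hold the middle 90% of all probes. The probe of sir lies above its box on both CA over PE arrays, at 1.05 and 0.61, and below it on adult leaf array 2, at -0.80.

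The plot of organs and bags sets these values side by side. The fitted difference of sir between CA and PE was 0.83 ± 0.23 (SE), a ratio of 1.77, and passed the threshold, as did 3.62% of the 1962 probes tested. The 95% interval ran from 0.37 to 1.28. In adult leaf the mean was -0.51 ± 0.23 (SE), a ratio of 0.705, and did not pass, where 1.58% of probes passed. Leaving out either bag array, in a fit that then had to drop the dye term, ended the sir call, at 0.61 without array 1 and 1.05 without array 2. With source plate medians set to 0 its difference was 0.82 and did not pass. With the dye-swapped arrays turned it was 0.22 and did not pass, in a setting where no probe of any gene did.

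Across the regimes sir moved little. It read -0.05 and -0.26 at 2 h high, -0.02 and -0.18 at 4 h medium, 0.00 and -0.10 at 8 h high, and 0.08 and -0.39 at 8 h low. Array 2 was the lower in each regime, and array 2 is the one with the dyes exchanged, so a dye difference and the array cannot be told apart. The fitted means ran from -0.16 to -0.05 with SE 0.14, and none of the 4 regimes or of the 5 contrasts between them passed for sir. At 8 h high its 95% interval was -0.31 to 0.22.

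**Figure D3:**
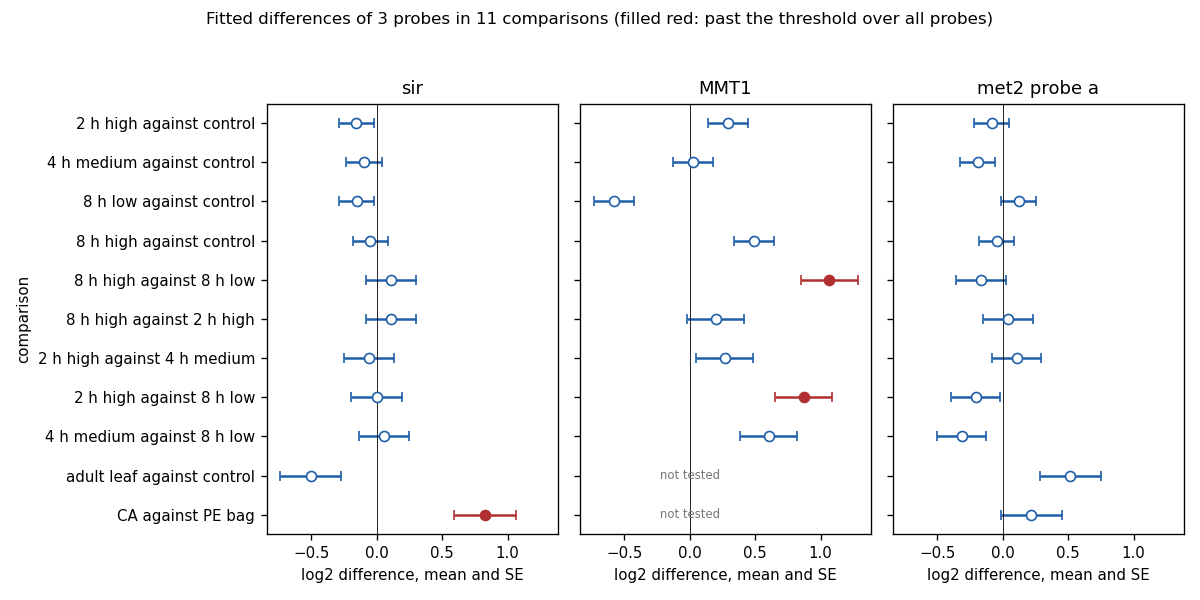
Fitted log2 differences of sir, MMT1 and met2 probe a in 11 comparisons, as the limma estimate with its SE on the horizontal axis. Filled red points passed the adjusted threshold over all probes: sir for CA against PE (0.83), and MMT1 for 8 h high against 8 h low (1.07) and 2 h high against 8 h low (0.87).

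The plot of fitted differences gives 3 filled points among those drawn. In 4 h medium against 8 h low, limma passed 0 of 4867 probes and 217 had an unadjusted p under 0.05, MMT1 among them. In 8 h high against 2 h high 11.4% of probes passed and in 2 h high against 4 h medium 6.76% did. Neither count held sir, MMT1 or met2 probe a, and sam2 and met2 probe b were not tested there.

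The met2 probes gave little that could be set against each other. Probe a had a value on all 17 profiles and lay between -0.26 and 0.15 on every regime array. Its regime means were -0.08 at 2 h high, -0.19 at 4 h medium, -0.05 at 8 h high and 0.12 at 8 h low, each with SE 0.13, and none passed. In the organs it was, as deposited, highest on adult leaf array 2, at 1.02, where array 1 read 0.00, and lowest in immature ear, at -0.80. Both columns are labelled as dye-swapped, and with their signs turned the order was the opposite, at -1.02 and 0.80. The ear profile was also deposited with the same sign under an unswapped label, so its label does not settle its direction. The probes of the source plate of probe a had medians of 0.58 and -0.32 on those 2 profiles. The part of the plate in these values was not tested beyond the alternative with plate medians at 0. Probe a read 0.41 in PE-covered leaf, 0.08 and 0.36 for CA over PE, 0.05 in tassel, 0.03 in root and -0.19 in seedling leaf, where its spots had an SD of 0.31. The adult leaf mean of 0.51 ± 0.23 (SE) did not pass.

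Probe b of met2 had a value on 5 of the 17 profiles. It was also filled on seedling leaf array 1, the column not kept, where its spots read -3.88, -0.40 and -0.21, for a mean of -1.50. It read 1.15 in tassel over 3 spots, above 99.4% of probes, where probe a read 0.05. On the regime arrays it read -0.55 on 4 h medium array 2 and 0.03 on 8 h low array 1, from 1 spot each, and -0.08 and 0.39 at 8 h high from 1 and 2 spots. Only in the fit without the dye term could probe b be tested, at 8 h high, and its mean of 0.16 ± 0.17 (SE) did not pass. It lay above probe a in tassel and on 8 h high array 2 and below it on the other 3 profiles, and nothing in the files says which follows met2 more closely. Spotted cDNA can also bind transcripts of related genes.

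The gene sam2 had a value on 11 profiles, on 8 of 9 in the first design and 3 of 8 in the second. As deposited it was highest in seedling leaf, at 0.91, a ratio of 1.88, above 98.4% of probes. The column kept is labelled as dye-swapped, and with the sign turned that value was -0.91. Array 1, which repeats the profile under an unswapped label, read 0.92. The medians of its plate and block on that profile were 0.38 and 0.28, and their part in the value was not tested. It read 0.19 in root, 0.15 in tassel, 0.15 in PE-covered leaf, -0.04 on adult leaf array 1 and -0.26 in immature ear from 1 spot. For CA over PE it read -0.22 and -0.32, with spots that scattered by SDs of 0.50 and 0.40, so its difference from 0 was within the scatter of its spots. It read -0.19 and -0.28 at 2 h high and -0.04 on 4 h medium array 1, and had no value on the arrays of either 8 h regime. With the dye term too few arrays held a value for a test of sam2. Without it, its means of -0.27 ± 0.19 (SE) for CA over PE and -0.24 ± 0.15 (SE) at 2 h high did not pass.

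Probes of other genes tied to sulfur or to S-adenosylmethionine were found by symbol or synonym, 13 of them on the second design. The lists covered sulfate assimilation and cysteine, the methionine cycle, users of S-adenosylmethionine, glutathione and sulfur-rich proteins. Without gene descriptions to search, other such genes on the arrays may have been missed. At 2 h high 3 of the 13 lay above 0 and 10 below, with a median of -0.12 against -0.01 for all probes. None of the 13 passed there, where 13.7% of all probes did. At 8 h low the split was again 3 and 10, with a median of -0.19 against -0.01. That split came from 8 h low array 2, with 3 above and 10 below, while on array 1 it was the reverse, 10 above and 3 below. At 4 h medium 4 lay above 0 and 9 below, with a median of -0.05 against 0.00. At 8 h high 8 lay above 0 and 5 below, with a median of 0.00 for the 13 and for all probes.

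**Figure D4:**
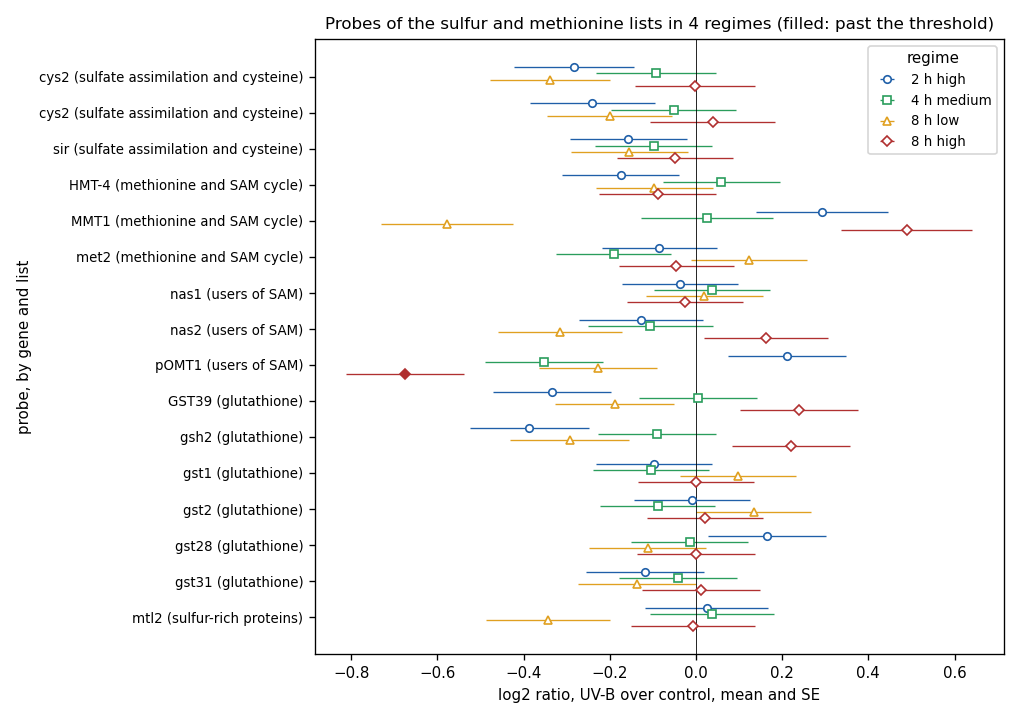
Fitted log2 ratios of UV-B over control, with SE, for the probes of the sulfur and methionine lists in the 4 regimes. The filled point is pOMT1 at 8 h high, at -0.67, and no other value drawn passed the threshold. MMT1 spans the widest range, from -0.58 at 8 h low to 0.49 at 8 h high.

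The plot of the lists by regime shows each of them against control. Of the 13, only pOMT1, named for an O-methyltransferase and listed as a user of S-adenosylmethionine, passed. It fell by 0.67 ± 0.14 (SE) at 8 h high. Over all probes 3.78% passed at 8 h high, 13.7% at 2 h high, 0.387% at 8 h low and 0.303% at 4 h medium. With 13 probes the count does not stand apart from these shares. The pOMT1 call was lost without either 8 h high array, at -0.86 and -0.49. Between 8 h high and 2 h high 3 of the 13 passed, where 11.4% of all probes did: pOMT1 was lower at 8 h high (-0.89 ± 0.19, SE), while gsh2 (0.61 ± 0.19, SE), named for glutathione synthesis, and GST39 (0.57 ± 0.19, SE), a glutathione S-transferase, were higher. The gsh2 and GST39 calls were lost without any single array of the 2 regimes, and the pOMT1 call without array 2 of either. The hmt4 probe, whose enzyme runs the step opposite to that of MMT1, gave -0.18 at 2 h high, 0.06 at 4 h medium, -0.10 at 8 h low and -0.09 at 8 h high, each with SE 0.14, and did not pass. Beside sir, the probes of cys2 gave -0.28 and -0.24 at 2 h high and -0.34 and -0.20 at 8 h low, and did not pass. The 8 h low means came from array 2, since the probes read 0.03 and -0.70, and 0.24 and -0.64, on arrays 1 and 2. In the first design 5 of these probes were tested, and 0 passed in limma for CA against PE, where 3.62% of all probes did, or for adult leaf, where 1.58% did, so the count stands apart from neither.

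A pair of genes was added to the lists after the annotation was seen. AKHSDH1, named for aspartate kinase and homoserine dehydrogenase of the pathway that leads to methionine, did not pass in any regime and lay between -0.01 and 0.17. A gene with the synonym csu503(met), for which no role is given, fell by 0.47 ± 0.14 (SE) at 2 h high, where 13.7% of probes passed. Its 8 h high values exceeded those of 2 h high by 0.82 ± 0.20 (SE), where 11.4% passed. The difference of 2 h high from 8 h low, -0.66 ± 0.20 (SE), also passed, where 5.28% did. All of these calls were lost with plate medians at 0, at -0.31, 0.42 and -0.49, and without the dye term. The 8 h high arrays read -0.13 and 0.82, and without array 2 the difference from 2 h high was 0.42 and did not pass. Without 2 h high array 2 none of these calls was kept, at -0.22 against control, 0.57 for 8 h high against 2 h high and -0.41 for 2 h high against 8 h low.

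Likeness of pattern was measured as Pearson's r over arrays of 1 design, with no test, since the points are few and share platform, dyes and group. Over the 8 regime arrays, MMT1 was most like GBSSIIa, a granule-bound starch synthase (r = 0.93), thi1-2, a thiamine synthesis gene (0.93), and NNR1, a nitrate reductase (0.91), of 341 probes compared. The nearest to sir there were RR7, a response regulator (0.97), LOC542547 (0.95) and zap1, a MADS-box gene (0.94). For met2 probe a they were gst2 (0.98) and gst1 (0.79), both glutathione S-transferases, and the cellulose synthase CesA-9 (0.81). In the first design the nearest genes were grp1 (0.87), mha4 (0.86) and DWF1 (0.82) for MMT1. They were LOC542656 (0.82), PDIL1-2 (0.81) and HDA108 (0.79) for sir, PBF (0.95), LOC732771 (0.93) and gst31 (0.93) for met2 probe a, and pgl1 (0.84), PUMP (0.82) and glb2 (0.81) for sam2. No gene was among the nearest to the same probe in both designs.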

How the data were processed

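Spotted 2-colour arrays of maize total RNA were analysed from the deposited log2 ratios of the 2 channels. The log base was settled from repeated values. Background correction, normalization and filters before deposit are not given in the sources used here. No intensities were used, so depth and signal over background are unknown.

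Spots were averaged in threes and each array was centred on its median. Swapped arrays were taken as already turned. Repeated columns (tolerance 1e-06) were used once, a departure from the planned count of arrays. limma 3.58.1 in R 4.3.3 (lmFit, eBayes, Benjamini-Hochberg over all probes, threshold 0.05) was run on the 8 regime arrays, and on the 2 adult leaf and 2 bag arrays. Both fits had a term for channel orientation, which is also the replicate number and so a replicate block. Arrays of one orientation deviated together in 6 of 6 pairs of regimes (r from 0.20 to 0.56). In the regime fit the prior degrees of freedom were 44.4, so each SE leaned mostly on the spread of all probes. In the small fit the prior degrees of freedom were infinite, so every probe had 1 SE. The limma steps were tested on simulated data.

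The rule named every probe of the 4 genes, the 3 genes most like each over at least 6 arrays, and list genes past the threshold. Members and lists were chosen with earlier results of these data known. Lists were matched by symbol and synonym, because the tables used here hold no gene descriptions. Alternatives were other scalings, block or plate centring, array weights, orientation, spot medians and leaving out arrays.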

Additional observations from a re-analysis of the deposited data

Results flagged for a closer look

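These differences were picked out because all arrays of one group lay above 0 and all of the other below. Some groups hold 1 profile. In the first design the differences were not tested. They hold for the signs as deposited. The second adult leaf array is dye-swapped, and the seedling leaf and immature ear profiles were deposited with the same sign under both dye labels. For sir, uncovered adult leaf stood below the other profiles named here, among which the PE-covered leaf is also an adult leaf: seedling leaf minus adult leaf was 1.05, and adult leaf minus tassel -0.54, minus immature ear -0.95, minus root -0.61 and minus PE-covered leaf -0.98. For met2 probe a, seedling leaf minus adult leaf was -0.70 and adult leaf minus immature ear 1.31, with array 1 of adult leaf at 0.00.

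In the regimes the difference itself was fitted. MMT1 was higher at 2 h high than at 8 h low (0.87) and lower at 8 h low than at 8 h high (-1.07), and both passed the threshold in limma. Of all probes 5.28% passed in the first of these and 0.636% in the second. The 8 h low arrays of MMT1 read -0.01 and -1.15, so array 1 lay below 0 by very little and both differences rest on array 2. For met2 probe a, 2 h high minus 8 h low (-0.21) and 4 h medium minus 8 h low (-0.31) did not pass.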

How the results depend on the processing

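Of 655 values of single probes under the alternatives, 523 kept their side of the threshold and moved by less than the spread between replicates, 95 moved further, 18 passed newly, 17 no longer passed and 2 reversed. The reversed were MMT1 with swapped arrays turned the other way, at -0.59 for 2 h high against 8 h low and -0.43 for 8 h high against 8 h low.

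The number of member probes past the threshold changed as follows. For 8 h high against 8 h low (1 as reported) it was 0 with array weights, with block medians at 0, with turned arrays and with no replicate block, and 0 to 1 when arrays were left out in turn. No probe of any gene passed in that comparison with no replicate block, or in any comparison with turned arrays. For 2 h high against 8 h low (1) it was 0 with block medians at 0, scale normalization, turned arrays and no replicate block, and 0 to 1 on leaving out arrays. It fell to 0 there without either 8 h high array, which changes the shared spread alone, and without 2 h high array 2 or 8 h low array 2. For 8 h high against control (0) it was 1, MMT1, with no median centring, plate medians at 0 or scale normalization, and 0 to 1 on leaving out arrays. For 8 h low against control (0) it was 1, MMT1, with no median centring, and 0 to 1 on leaving out arrays. For 4 h medium against 8 h low (0) it was 0 to 1, with MMT1 passing without 8 h low array 1. For 2 h high against 4 h medium (0) it was 1, MMT1, with array weights or with those 4 arrays alone. Of 5159 probes, 949 passed above 0 and 631 below with array weights, and 846 and 538 with those 4 arrays. For 2 h high against control (0) it was 2, MMT1 and sir, with array weights, where 1341 of 5199 probes passed above 0 and 1283 below. For CA against PE (1) it was 0 with plate medians at 0 or turned arrays. Leaving out an array of the first design left no residual degrees of freedom with the orientation term, so those fits had none, a choice made after seeing the data. Each of them left 1 array in a group, so only sizes are given here. Without either adult leaf array the CA against PE difference was -0.57 for MMT1 and 0.83 for sir. Without adult leaf array 1 the adult leaf value was -0.80 for sir and 1.02 for met2 probe a, which is array 2 alone.

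Counts over all probes moved more: 31 as reported and 0 to 660 for 8 h high against 8 h low, 252 and 0 to 741 for 2 h high against 8 h low, 349 and 0 to 1580 for 2 h high against 4 h medium, 714 and 0 to 2624 for 2 h high, 16 and 0 to 681 for 4 h medium, 19 and 0 to 1005 for 8 h low, 197 and 0 to 400 for 8 h high, 579 and 0 to 1323 for 8 h high against 2 h high, 0 and 0 to 124 for 4 h medium against 8 h low, 71 and 0 to 314 for CA against PE, and 31 and 0 to 510 for adult leaf. The causes were not tested. With 2 arrays a group, and no intensities, small differences could not be resolved.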
